A study of Mus musculus with 6 samples.

Results

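The genes of the proteasome were followed in the prostates of mice given testosterone and estradiol. The set holds every row of the deposited table whose symbol is Psma, Psmb, Psmc, Psmd, Psme, Psmf or Psmg followed by a number, which gave 48 of 34745 genes. Of these, 46 had enough reads to be tested, among 15580 tested genes. RNA came from prostate tissue of male C57BL/6 mice that were 6 to 8 weeks old when the study began. The 3 mice of the T + E2 group each carried a slow-release pellet of testosterone and estradiol under the skin for 12 weeks, renewed each month, and the 3 mice of the CON group had the skin incision alone. No castration is described for either group, so the comparison asks what added testosterone and estradiol changed in the prostate of otherwise intact mice. The authors took this treatment as a model of benign prostatic hyperplasia with obstruction of the bladder outlet.

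The proteasome is the protease complex that degrades proteins marked with ubiquitin. Its 20S core is a barrel of stacked alpha and beta rings, and its beta5, beta1 and beta2 subunits (Psmb5, Psmb6 and Psmb7) carry the catalytic sites. The 19S particle caps the barrel, binds ubiquitin chains and unfolds the substrate with a ring of ATPases. Interferon and immune cells bring in the immunoproteasome, in which beta5i, beta1i and beta2i (Psmb8, Psmb9 and Psmb10) take the catalytic sites, and the PA28 cap (Psme1 and Psme2), which together alter the peptides available for presentation on MHC class I. Cells that lack proteasome activity raise most subunit genes together through the transcription factor Nfe2l1, and dedicated chaperones assemble the core and the cap.

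Promoter sequences are shown for 3 genes because they carry, in different members, the short motifs of the factors known to drive constitutive and immune subunits. Psmb5 and Psmb8 encode the constitutive and the immune form of the same catalytic subunit, and Psmc6 is a member that rose and holds an antioxidant response element core, the kind of site that Nfe2l1 and Nfe2l2 bind. The windows are the 250 bases before the annotated start in RefSeq on GRCm38.p6, read 5′ to 3′ on the gene's strand. They lie at chr14:54617996-54618245 (minus strand) for Psmb5, chr17:34197945-34198194 (plus strand) for Psmb8 and chr14:45329574-45329823 (plus strand) for Psmc6. The Psmb8 window lies inside the span of Psmb8 in the deposited data (chr17:34197721-34201454), which begins further upstream than this RefSeq start. Capitals mark the antioxidant response element core TGACNNNGC, on either strand, in Psmb5 and Psmc6, and the gamma-activated sequence core TTCNNNGAA in Psmb8.
Psmb5: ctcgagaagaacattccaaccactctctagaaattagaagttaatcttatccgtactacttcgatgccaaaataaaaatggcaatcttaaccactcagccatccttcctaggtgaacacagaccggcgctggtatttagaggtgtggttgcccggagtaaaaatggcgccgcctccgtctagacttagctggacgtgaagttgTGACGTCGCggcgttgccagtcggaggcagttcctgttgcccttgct
Psmb8: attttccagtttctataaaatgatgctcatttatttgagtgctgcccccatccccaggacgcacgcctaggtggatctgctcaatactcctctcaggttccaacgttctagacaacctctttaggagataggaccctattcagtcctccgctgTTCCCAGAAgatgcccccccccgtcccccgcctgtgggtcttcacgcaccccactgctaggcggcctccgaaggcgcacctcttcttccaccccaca
Psmc6: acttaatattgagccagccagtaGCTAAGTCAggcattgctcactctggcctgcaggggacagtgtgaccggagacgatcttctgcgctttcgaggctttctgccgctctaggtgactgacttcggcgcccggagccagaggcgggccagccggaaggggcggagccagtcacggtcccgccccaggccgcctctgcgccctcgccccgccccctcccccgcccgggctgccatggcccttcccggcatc

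Windows that ran to 50 bases past the start were found for 40 of the 48 members (43 windows, since some members have more than one start) and were searched on both strands. The antioxidant response element core stood in 6 of these 40 members (15.0%), namely Psmb5, Psmb6, Psmc6, Psmd9, Psmd12 and Psme4, and in 12.4% of all 32851 windows. The interferon-stimulated response element core GAAANNGAAA stood in 5 members (12.5%), namely Psmb3, Psmd4, Psmd9, Psme1 and Psmg4, and in 3.44% of all windows. The gamma-activated sequence core was found in 3 members (7.5%), namely Psmb8, Psmd2 and Psmg1, against 8.3% of all windows, and the CCAAT box in 14 members (35.0%) against 37.4%. A member counts once if any of its windows holds the motif, so its chance of a match grows with its number of windows. In the members that held more than one of these motifs the matches did not overlap. Of the 6 members with the antioxidant response element core, Psmc6 and Psme4 passed the test for a rise and the others did not pass. Of all tested genes 10.4% rose, and a link between the motif and the rise was not tested.

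Reads counted on genes totalled 14816146 to 16555549 per mouse, and the 48 members took 0.317 to 0.346% of them in the CON mice, against 0.362 to 0.406% with T + E2. Expression is given as CPM, the count relative to the library total after scaling by the TMM method. A count of 3, the smallest taken to differ from none, was worth 0.183 to 0.208 CPM, and this covers counting error only. A log2 fold change is positive where the T + E2 group was higher, and a gene passed the test at an adjusted p under 0.05 over all tested genes. The prostate markers Pbsn and Tgm4 were abundant in every mouse, and the summed CPM of 9 luminal markers was 35110 to 48320 in the CON mice, against 7335 to 9229 with T + E2. Seminal vesicle markers summed to 9939 CPM in CON replicate 2 and to 600.8 CPM in T + E2 replicate 2, so counts of members that passed the test are also given without each of these mice. In whole tissue, fewer cells of a type and less RNA per cell cannot be told apart.

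The log2 fold changes of the proteasome genes were small and mostly positive. Of the 46 tested members, 6 rose (Psmd3, Psmb2, Psme4, Psmd1, Psmc6 and Psma3) and 2 fell (Psmb10 and Psmf1), where 10.4% of all tested genes rose and 9.25% fell. None passed the test with an absolute log2 fold change over 1, which 7.64% of all tested genes did, and the largest change was the 1.70-fold rise of Psmd3. The log2 fold change was positive in 36 of the 46 (78.3%), against 49.8% of all tested genes, and its median was 0.21 against -0.002. Levels did not overlap between the groups and were higher in the T + E2 mice in 16 members, and were without overlap and lower in 2, where 20.0% and 20.7% of all tested genes were. At an unadjusted p under 0.05, 16 members were higher and 2 lower, where 17.4% and 17.1% of all tested genes were. Without CON replicate 2, 3 members rose (Psmb2, Psmd3 and Psme4) and 0 fell, where 7.56% of all tested genes rose and 5.84% fell. The same 3 rose and 0 fell without CON replicate 1 (9.19% and 6.56% of all tested genes) and without T + E2 replicate 1 (7.42% and 5.81%). Psmd1 rose with them, and 0 fell, without CON replicate 3 (6.90% and 5.26%) and without T + E2 replicate 2 (6.99% and 5.50%). Without T + E2 replicate 3, 10 members rose and 1 fell, where 9.27% of all tested genes rose and 7.97% fell.

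By particle, the values lay as follows. All 14 constitutive 20S genes and all 17 genes of the 19S particle had a positive log2 fold change, with medians of 0.25 and 0.22. Of all tested genes, 49.8% had a positive value. Only 2 of the 14 and 3 of the 17 passed the test for a rise, where 10.4% of all tested genes did. Of the 5 genes of the immunoproteasome and PA28, 4 had a negative value, with a median of -0.16 over the 5. Of the 5, 1 fell, where 9.25% of all tested genes did. The 4 chaperones that assemble the 20S core (Psmg1, Psmg2, Psmg3 and Psmg4) had values from -0.22 to -0.01, and none passed the test. These counts are descriptions, since subunits of one complex vary together and are not independent.

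**Figure D1:**
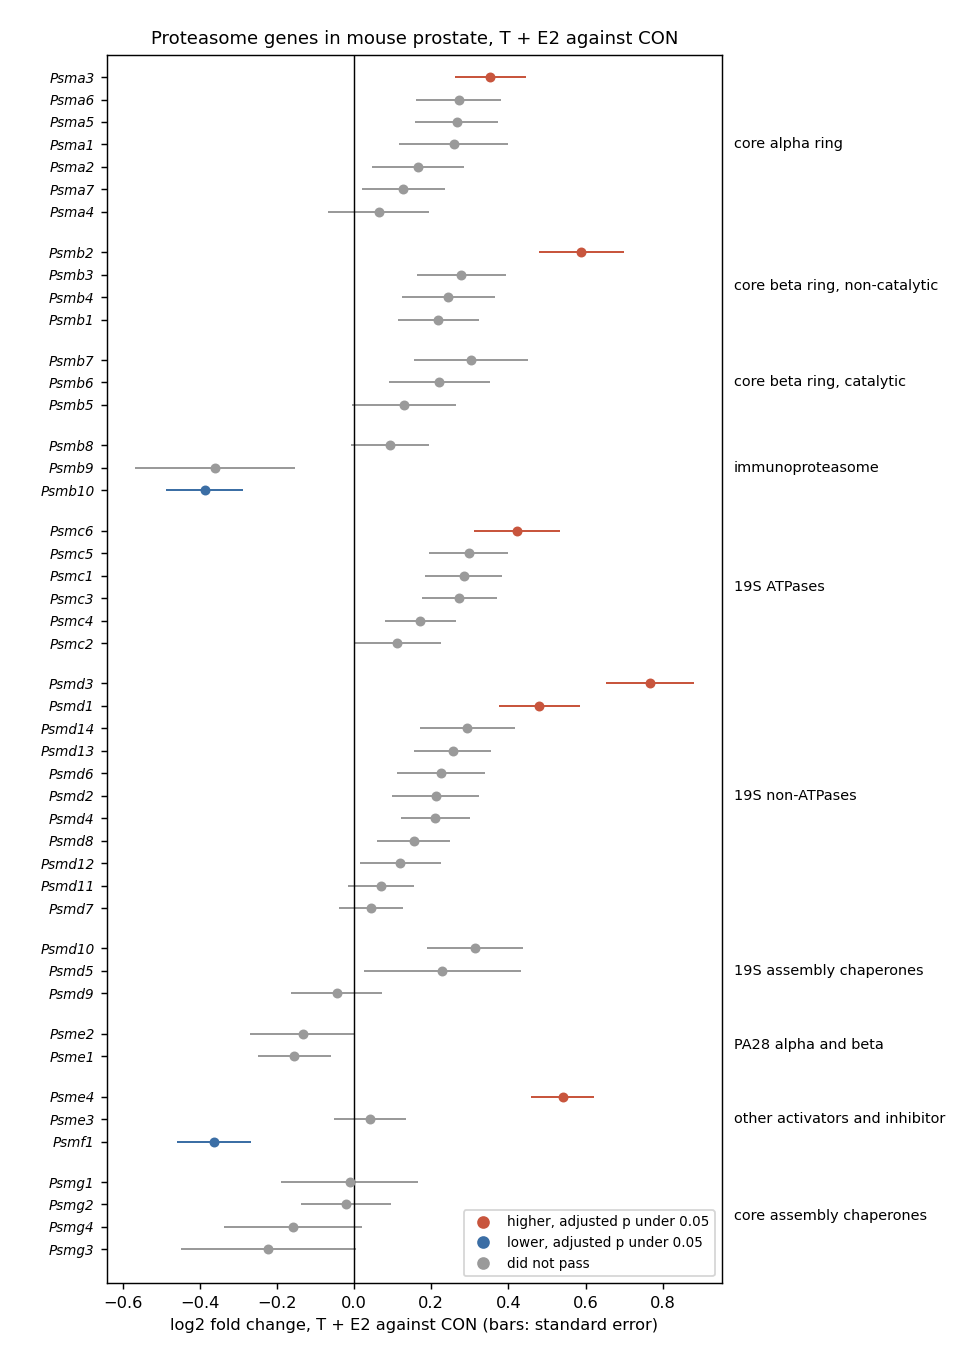
Log2 fold change of the 46 tested proteasome genes between the T + E2 and CON groups, by class, with bars for the standard error. The 14 constitutive 20S genes and the 17 genes of the 19S particle all lie to the right of 0, while Psmb9, Psmb10, Psme1, Psme2 and the 4 Psmg genes lie to the left.

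Summed over its 17 genes, the 19S particle reached 1573, 1603 and 1754 CPM in the CON mice, against 2090, 2084 and 1904 CPM with T + E2. The groups did not overlap, and the ratio of their means was 1.23. Without Psmd3, the remaining 16 genes summed to 1387, 1436 and 1542 CPM in the CON mice, against 1787, 1772 and 1557 CPM with T + E2, a ratio of 1.17, with the lowest T + E2 mouse just above the highest CON mouse. The 14 constitutive 20S genes summed to 1015, 1044 and 1175 CPM in the CON mice, against 1335, 1385 and 1100 CPM with T + E2, a ratio of 1.18. Here the groups overlapped, because T + E2 replicate 3 lay below CON replicate 3. The 3 immunoproteasome genes summed to 62.2, 52.7 and 56.6 CPM in the CON mice, against 50.6, 51.8 and 47.0 CPM with T + E2, a ratio of 0.87. The highest T + E2 mouse lay just below the lowest CON mouse. Of these genes, Psmb10 alone did not overlap between the groups.

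**Figure D2:**
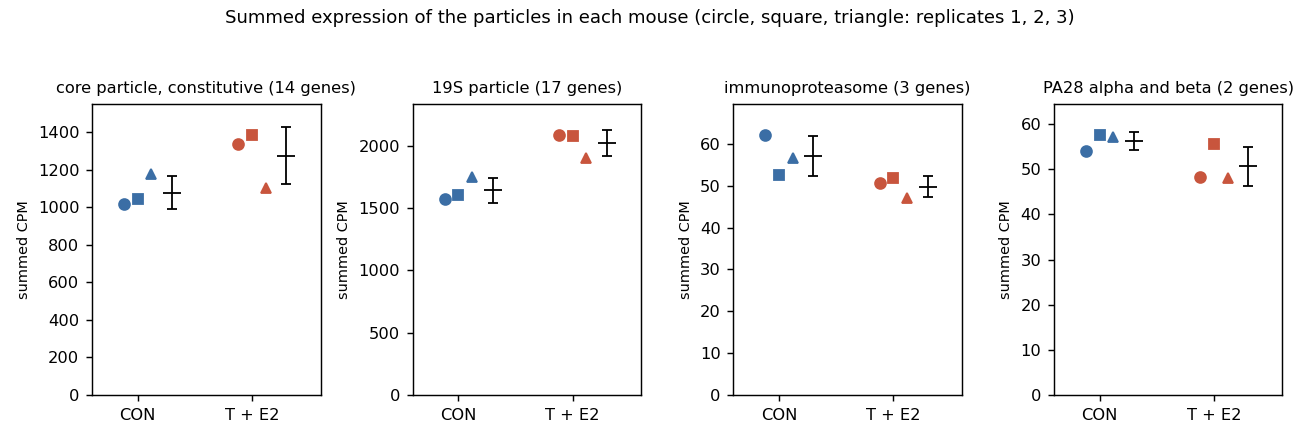
Summed CPM of the genes of each particle in each mouse, with circles, squares and triangles for replicates 1, 2 and 3 and the mean and SD beside each group. The 19S sums of the T + E2 mice (1904 to 2090) lie above those of the CON mice (1573 to 1754). The immunoproteasome sums of the T + E2 mice lie below those of the CON mice, with a small gap.

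The constitutive subunits moved together between mice of the same group as well. Among the 31 constitutive 20S and 19S genes, CON replicate 3 was the highest CON mouse for 27 (87.1%) and T + E2 replicate 3 the lowest T + E2 mouse for 28 (90.3%). Over all tested genes the corresponding shares were 33.8% and 35.6%. This order was chosen for description after the values were seen. Psmd3, which was highest in T + E2 replicate 3, was an exception.

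Within the 19S particle, 3 of 17 genes rose, where 10.4% of all tested genes did. Psmd3 (Rpn3, a scaffold subunit of the lid, chr11:98682554-98695979) was at 185.6, 167.2 and 212.1 CPM in the CON mice, against 302.4, 311.6 and 346.7 CPM with T + E2. Every T + E2 mouse lay well above every CON mouse, and the mean went from 188 ± 22.5 to 320 ± 23.4 CPM (SD, n = 3 mice per group). The log2 fold change was 0.77 ± 0.11 (SE), with an adjusted p of 0.00305 by edgeR's quasi-likelihood test, the largest change of any member. Psmd1 (Rpn2, a scaffold of the base that receives the ubiquitin receptor Rpn13) was at 109.0, 113.2 and 121.6 CPM in the CON mice, against 173.1, 165.6 and 140.8 CPM with T + E2. Its log2 fold change was 0.48 ± 0.10 (SE, adjusted p = 0.0163), and the groups did not overlap. Psmc6 (Rpt4, an ATPase of the unfolding ring, and the gene whose promoter is shown above) was at 69.7, 76.8 and 68.9 CPM in the CON mice, against 99.5, 105.5 and 83.7 CPM with T + E2. The log2 fold change of Psmc6 was 0.42 ± 0.11 (SE, adjusted p = 0.0329).

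The other 5 ATPase genes did not pass the test, with log2 fold changes of 0.11 for Psmc2 (Rpt1), 0.17 for Psmc4 (Rpt3), 0.27 for Psmc3 (Rpt5), 0.28 for Psmc1 (Rpt2) and 0.30 for Psmc5 (Rpt6). Levels of Psmc1, Psmc3, Psmc4 and Psmc5 did not overlap between the groups and were higher with T + E2, as were those of 20.0% of all tested genes. For Psmc4 the gap was small, with the highest CON mouse at 68.03 CPM and the lowest T + E2 mouse at 68.74 CPM. Psmc3 shares 215 exon bases with Slc39a13 on the opposite strand, and whether the reads were counted by strand is not given in the sources used here.

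The remaining 9 non-ATPase genes of the 19S particle lay between 0.04 and 0.29 and did not pass. Psmd14 (Rpn11), the deubiquitinase that removes the ubiquitin chain before the substrate enters the core, was at 31.3, 33.2 and 38.1 CPM in the CON mice, against 41.8, 47.2 and 36.7 CPM with T + E2, with a log2 fold change of 0.29 ± 0.12 (SE, adjusted p = 0.132). T + E2 replicate 3 fell inside the CON range. Psmd4 (Rpn10, a ubiquitin receptor) had a value of 0.21, Psmd2 (Rpn1, which docks ubiquitin carriers) 0.21, Psmd13 (Rpn9) 0.26, Psmd6 (Rpn7) 0.23, Psmd8 (Rpn12) 0.16, Psmd12 (Rpn5) 0.12, Psmd11 (Rpn6) 0.07 and Psmd7 (Rpn8, the partner of Rpn11) 0.04. Psmd13 shares 342 exon bases with Sirt3 on the opposite strand. Psmd7 was nearly level across the CON mice, at 146.4 ± 0.311 CPM (SD), and its T + E2 mean was 150.8 ± 8.69 CPM. Psmd11 is 97.9% identical over 1501 bases to A730017L22Rik, so its reads may be split between them, and the sum of both had a log2 ratio of 0.05.

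In the 20S core, 2 of 14 constitutive genes rose, which is near the 10.4% of all tested genes that did. Psmb2 (beta4, a structural subunit of the beta ring) was at 67.9, 67.7 and 66.6 CPM in the CON mice, against 111.9, 105.2 and 86.9 CPM with T + E2. The CON mice were nearly identical and every T + E2 mouse lay above them, with a log2 fold change of 0.59 ± 0.11 (SE, adjusted p = 0.00855). Psma3 (alpha7, a subunit of the outer ring that gates the barrel) was at 29.7, 29.8 and 32.6 CPM in the CON mice, against 38.9, 41.8 and 36.9 CPM with T + E2. Its log2 fold change was 0.35 ± 0.09 (SE, adjusted p = 0.0323). The other alpha subunits did not pass, with values of 0.27 for Psma6 (alpha1), 0.27 for Psma5 (alpha5), 0.26 for Psma1 (alpha6), 0.16 for Psma2 (alpha2), 0.13 for Psma7 (alpha4) and 0.06 for Psma4 (alpha3). Psma5 is 98.6% identical to the pseudogene Gm8394, which held 170 to 278 counts per mouse against 257 to 389 for Psma5, and the sum of both had a log2 ratio of 0.26. The other structural beta subunits, Psmb1 (beta6), Psmb3 (beta3) and Psmb4 (beta7), had values of 0.22, 0.28 and 0.24 and did not pass.

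None of the 3 constitutive catalytic genes passed the test. Psmb7 (beta2, the trypsin-like site) was at 70.7, 72.9 and 85.4 CPM in the CON mice, against 102.7, 105.2 and 74.8 CPM with T + E2, with a log2 fold change of 0.30 ± 0.15 (SE, adjusted p = 0.188). T + E2 replicates 1 and 2 lay above every CON mouse, and replicate 3 inside the CON range. Psmb6 (beta1, the caspase-like site) was at 101.3, 108.1 and 130.3 CPM in the CON mice, against 140.4, 142.0 and 113.4 CPM with T + E2, a log2 fold change of 0.22 ± 0.13 (SE, adjusted p = 0.273). Psmb5 (beta5, the chymotrypsin-like site) was at 53.4, 47.8 and 63.7 CPM in the CON mice, against 64.3, 63.8 and 52.3 CPM with T + E2, with a value of 0.13 ± 0.13 (SE, adjusted p = 0.531). Exons of Psmb7 share 405 bases with Nek6 on the opposite strand, whose counts were at most 125.

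Of the immune forms of these sites, Psmb10 fell, and Psmb8 and Psmb9 did not pass the test. Psmb10 (beta2i, chr8:105935728-105938392) was at 24.2, 22.1 and 21.9 CPM in the CON mice, against 17.8, 16.7 and 17.6 CPM with T + E2. Every T + E2 mouse lay below every CON mouse, and the log2 fold change was -0.39 ± 0.10 (SE, adjusted p = 0.0304), a fall to 0.76 of the CON level. Psmb9 (beta1i) was at 18.1, 10.8 and 16.1 CPM in the CON mice, against 12.4, 12.8 and 9.81 CPM with T + E2. CON replicate 2 lay inside the range of the T + E2 mice, and the log2 fold change of -0.36 ± 0.21 (SE, adjusted p = 0.254) did not pass. Psmb8 (beta5i) was at 19.9, 19.9 and 18.7 CPM in the CON mice, against 20.4, 22.3 and 19.6 CPM with T + E2, a log2 fold change of 0.09 ± 0.10 (SE, adjusted p = 0.559). Psmb9 lies beside Tap1 and shares 212 exon bases with it on the opposite strand, so some reads of one may be counted on the other. The call of Psmb10 was lost in DESeq2, with a block for the replicate number, and without each of the 6 mice in turn.

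Relative to the constitutive gene of the same site, compared on FPKM, Psmb10 amounted to 95.9, 84.9 and 71.8% of Psmb7 in the CON mice, against 48.5, 44.6 and 65.8% with T + E2. The groups did not overlap, and the difference in log2 ratio was -0.68 (exact two-sided permutation test, p = 0.1, adjusted over 3 pairs 0.15, n = 3 per group). Psmb9 amounted to 8.8, 4.91 and 6.09% of Psmb6 in the CON mice, against 4.35, 4.44 and 4.26% with T + E2, a difference in log2 ratio of -0.56 (exact permutation p = 0.1, adjusted 0.15). Again every T + E2 mouse was below every CON mouse, and the treated mice were close to each other. Psmb8 amounted to 8.45, 9.39 and 6.63% of Psmb5 in the CON mice, against 7.18, 7.91 and 8.49% with T + E2, with overlapping groups and a difference of -0.04 (exact permutation p = 0.9). With 3 mice against 3 the smallest p this test can give is 0.1. The percentages depend on the gene lengths behind the FPKM. With the length of the main coding transcript instead, an alternative chosen after the values were seen, mean Psmb10 came to 26.4% of Psmb7 in the CON group, against 16.3% with T + E2, and mean Psmb8 to 19.6 and 19.1% of Psmb5. The differences between groups do not depend on the length.

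**Figure D3:**
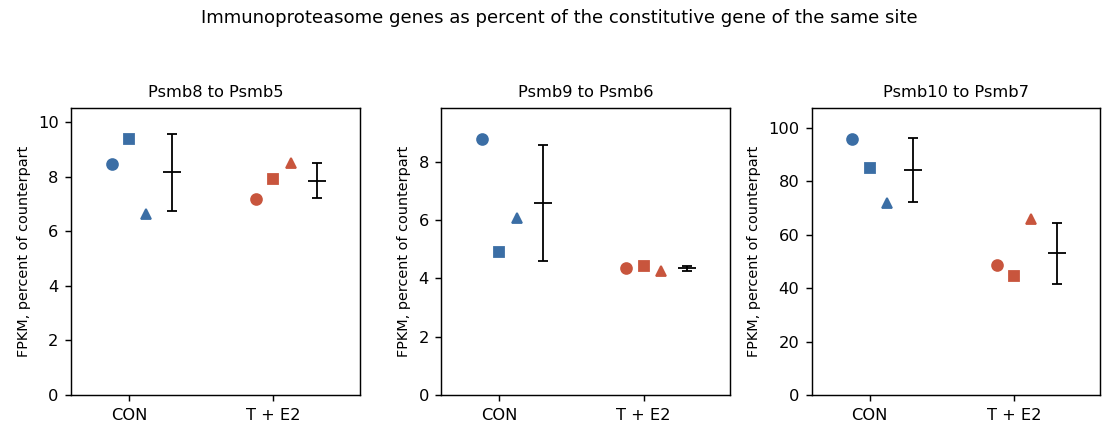
FPKM of each immunoproteasome gene as a percentage of the constitutive gene of the same catalytic site, in each mouse, with the mean and SD beside each group. Psmb10 relative to Psmb7 lies at 71.8 to 95.9% in the CON mice, against 44.6 to 65.8% with T + E2, and Psmb8 relative to Psmb5 overlaps between the groups.

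Of the genes for the other caps and the inhibitor of the core, Psme4 rose and Psmf1 fell. Psme4 (PA200, a large activator found in nuclei and abundant in testis) was at 144.0, 137.3 and 150.5 CPM in the CON mice, against 214.5, 211.8 and 201.9 CPM with T + E2. The T + E2 mice were close together and well above the CON mice, with a log2 fold change of 0.54 ± 0.08 (SE, adjusted p = 0.00317), the smallest standard error of any member. Psmf1 (PI31, which inhibits the isolated core in vitro) was at 38.0, 38.0 and 40.9 CPM in the CON mice, against 31.7, 27.5 and 31.6 CPM with T + E2, a log2 fold change of -0.36 ± 0.10 (SE, adjusted p = 0.0322). Psme1 (PA28 alpha) had a log2 fold change of -0.16 ± 0.09 (SE, adjusted p = 0.281) and Psme2 (PA28 beta) one of -0.13 ± 0.14 (SE, adjusted p = 0.522), and neither passed. Psme3 (PA28 gamma, a nuclear cap that is not induced by interferon) had a value of 0.04. Psme2 is 99.4% identical over 794 bases to Psme2b, which held 399 to 596 counts per mouse against 139 to 194 for Psme2, and the sum of both had a log2 ratio of 0.00, so the value of Psme2 alone is uncertain.

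**Figure D4:**
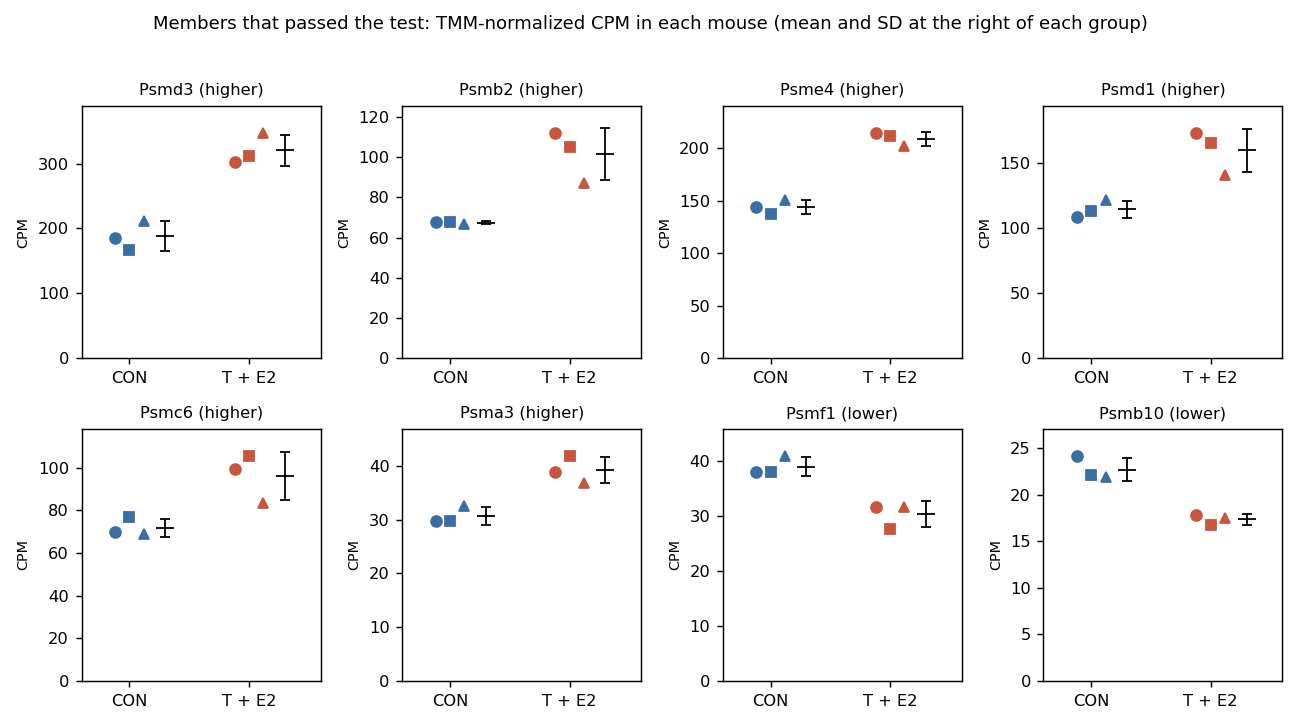
CPM of the 8 members that passed the test in each mouse, with circles, squares and triangles for replicates 1, 2 and 3 and the mean and SD beside each group. The T + E2 mice lie above the CON mice for Psmd3, Psmb2, Psme4, Psmd1, Psmc6 and Psma3 and below them for Psmf1 and Psmb10, and T + E2 replicate 3 is the lowest of its group for Psmb2, Psme4, Psmd1, Psmc6 and Psma3.

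The assembly chaperones of the proteasome did not pass the test. Among those of the 19S base, Psmd10 (gankyrin) had a log2 fold change of 0.31 ± 0.12 (SE, adjusted p = 0.115), Psmd5 (S5b) one of 0.23 ± 0.20 and Psmd9 (p27) one of -0.05 ± 0.12. Those of the 20S core were Psmg1 (PAC1) at -0.01, Psmg2 (PAC2) at -0.02, Psmg3 (PAC3) at -0.22 and Psmg4 (PAC4) at -0.16. A further 2 members did not have enough reads to be tested. Psmb11 (beta5t, the thymus subunit) had 0 counts in every mouse, and Psma8 (alpha4s, the testis subunit) had 0 counts in the CON mice, against 0, 3 and 1 with T + E2. Testis germ cell markers were at 0.662 to 1.05 summed CPM in the CON mice, against 0.734 to 0.913 with T + E2, with 2 of the 6 at 0.

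Levels of the members spanned more than an order of magnitude. Per kilobase of the main coding transcript, in CON means, Psmb6 was the highest at 143, followed by Psma7 at 110, Psmd7 at 93.7 and Psmb4 at 90.4, and Psmd9 was the lowest of the tested members at 8.85. The order depends on the lengths used, since the lengths implied by the deposited FPKM were 0.324 to 5.35 times those of the main coding transcript (median 2.26).

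Among 22 tested cofactors of ubiquitin and the proteasome, 2 rose and 2 fell, with a median log2 fold change of 0.10. These counts are near the shares over all tested genes, of which 10.4% rose and 9.25% fell. Pomp, the maturation protein that joins the beta ring during assembly of the core, was at 47.2, 48.2 and 55.2 CPM in the CON mice, against 71.3, 71.4 and 61.9 CPM with T + E2, a rise of 0.44 ± 0.10 (log2, SE, adjusted p = 0.0218). Ube3c, a ubiquitin ligase bound to the proteasome, rose by 0.44 ± 0.08 (adjusted p = 0.00906). Ubqln4, a shuttle that brings ubiquitinated proteins to the 19S particle, fell by 0.47 on the log2 scale (adjusted p = 0.0146). The 19S subunits named outside the Psm series, Adrm1 (Rpn13) and Shfm1, had values of 0.17 and 0.02 and did not pass, and that of Shfm1 turned negative under library totals alone (-0.02).

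Among 15 tested regulators of proteasome genes, 1 rose and none fell, where 10.4% and 9.25% of all tested genes did, with a median of -0.02. That gene was Nfe2l1, the transcription factor of the response to lost proteasome activity, at 130.7, 138.9 and 121.0 CPM in the CON mice, against 195.4, 201.0 and 194.2 CPM with T + E2. The groups stood far apart, with a log2 fold change of 0.60 ± 0.09 (SE, adjusted p = 0.00267). Nfe2l2, its relative of the oxidative stress response, had a value of 0.29 ± 0.11 (SE, adjusted p = 0.107). Of the interferon regulators of the immune subunits, Irf1 and Nlrc5 did not pass: Irf1 had a value of -0.43 ± 0.15 (adjusted p = 0.0783) and Nlrc5 one of 0.45 ± 0.23 (adjusted p = 0.214).

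Proteasomes supply peptides to a chain of enzymes and transporters that trim them and load them on MHC class I. Of 14 such antigen processing genes, 8 rose and 2 fell, where 10.4% and 9.25% of all tested genes did, with a median of 0.34. Calr rose by 1.03 ± 0.18, B2m by 0.92 ± 0.13, Lnpep by 0.86 ± 0.24, Pdia3 by 0.64 ± 0.15 and Canx by 0.61 ± 0.12 (log2, SE), and Calr, Pdia3 and Canx are also general folding factors of the endoplasmic reticulum. The subunits of the peptide transporter went in opposite directions, with a rise of 0.41 ± 0.10 for Tap2 (adjusted p = 0.0267) and a fold change of -0.54 ± 0.15 for Tap1 (log2, SE, adjusted p = 0.0409). Tap1 was at 34.8, 25.9 and 23.8 CPM in the CON mice, against 20.1, 18.9 and 19.1 CPM with T + E2. Tapbp (tapasin) had a value of 0.20 and did not pass. Of 30 interferon-responsive genes, 9 fell and 1 rose, where 9.25% and 10.4% of all tested genes did, with a median of -0.25. The largest falls were those of Mx1 (-1.12), Ifi44 (-1.01), Oasl2 (-0.81), Xaf1 (-0.76) and Stat2 (-0.75). The one that rose, Bst2, did so by 0.75 and is named here because its value was seen.

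**Figure D5:**
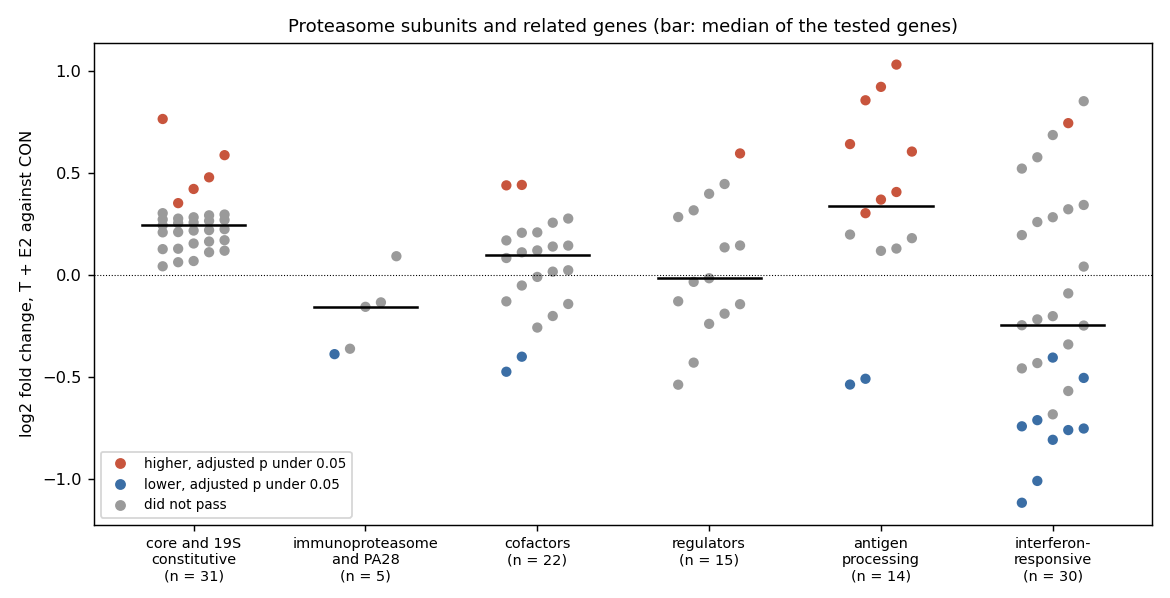
Log2 fold change of the tested genes of each list between the T + E2 and CON groups, with a bar at the median. The constitutive 20S and 19S genes lie above 0, the immunoproteasome and PA28 genes lie mostly below it, and the interferon-responsive genes have a median of -0.25.

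Markers of the cells that make the immune subunits, and of other cells of the tissue, are given beside these values. Over all tested genes, 10.4% rose and 9.25% fell. Of 10 tested T and NK cell markers 0 passed the test (0 also at an unadjusted p under 0.05), and their summed CPM was 12.1 to 24.9 in the CON mice, against 13.7 to 20.5 with T + E2. Ifng, the gene of interferon gamma, stayed under the value of 3 counts in every mouse. Of 15 macrophage and dendritic cell markers 4 rose (Itgam, C1qa, C1qb and C1qc) and 1 fell (Batf3). The sums of all 15 were 417.5 to 657.4 CPM in the CON mice, against 557.1 to 706.2 CPM with T + E2. Cd74, which did not pass, was the largest single part of each sum. It stood at 309.6, 212.8 and 170.1 CPM in the CON mice, against 185.7, 199.3 and 196.7 CPM with T + E2. Of 7 tested B and plasma cell markers Cd79b rose, from 0.44 to 1.06 CPM in the CON mice to 2.74 to 4.15 CPM with T + E2. The marker sums were 407.2 to 438.5 CPM in the CON mice, against 501.7 to 572.6 CPM with T + E2. Most of each sum was Xbp1, which did not pass, at 290.8 to 337.1 CPM in the CON mice, against 344.7 to 361.3 CPM with T + E2. Jchain, which did not pass either, varied more between mice. It was at 95.3, 21.9 and 32.7 CPM in the CON mice, against 68.1, 145.4 and 116.3 CPM with T + E2. Differences between these sums therefore do not follow Xbp1 alone. Among the other tissue markers, Vwf of 6 endothelial markers and Trp63 of 4 basal epithelial markers rose, Acta2 and Des of 9 stromal markers fell, Epcam of 9 luminal markers rose and Krt18, Pbsn, Tgm4 and Cd24a fell, and 0 of 3 tested seminal vesicle markers passed. The part of these shifts in cell makeup in the values of the members was not tested.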

How the data were processed

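RNA was extracted from the prostates of 3 CON and 3 T + E2 mice, and groups and replicate numbers were taken from the sample labels. The authors deposited 1 table that holds, for each mouse, whole-number read counts per gene without normalization, and FPKM values that the authors computed from these counts, a gene length and the library total. The submitters' processing notes name TopHat, Bowtie2 and HTSeq. Their versions, the genome build, the annotation and any use of strand in counting are not given in the sources used here. The coordinates lie on GRCm38, and 35 of the 48 members have the same span in GENCODE M21.

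The count test was run in edgeR 4.0.16 (R 4.3.3). The filter on low counts was filterByExpr, with a minimum count of 10 and a minimum total of 15, libraries were scaled by TMM, and groups were compared over all 15580 tested genes by its quasi-likelihood test, with p-values adjusted by Benjamini-Hochberg. The common biological coefficient of variation was 18%. The standard error of each log2 fold change was derived from its F statistic. Ratios of FPKM were compared by exact permutation over mice. The fit was first tested on simulated data. Similar transcripts were sought with BLAST 2.17.0+ (at least 90% identity over 100 bases and 50% of the transcript). Plots used matplotlib 3.10.9 (Python 3.11.15). Promoters came from RefSeq. Each mouse counted as 1 replicate, as separate animals by design.

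Every member was named. Of the lists (cofactors, regulators, antigen processing, interferon-responsive genes and cell type markers), the genes that passed the test were named, at most the 5 largest changes per list, together with 12 genes that control or build the members or act on their products. A few genes covered by this rule are left unreported. The members and lists were chosen with earlier results of these data known. Alternatives were median-of-ratios scaling, library totals, DESeq2 1.42.0, other filters, limma 3.58.1 on log2(FPKM + 1) and log2(FPKM + 0.1), the replicate number as a block, and leaving out 1 mouse at a time.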

Additional observations from a re-analysis of the deposited data

How the results depend on the processing

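The alternatives changed which members passed the test more than they changed direction. Psmd3, Psmb2 and Psme4 rose in all 14 alternative fits, while Psmd1 did not pass in 4, Psmc6 in 5, Psmf1 in 6 and Psma3 and Psmb10 in 8 of them. With an absolute log2 fold change over 1 as a further threshold, 0 members rose and 0 fell. DESeq2 gave 6 rises and 1 fall. Leaving out each mouse in turn gave 3 to 10 rises and 0 to 1 falls, with 3 rises without CON replicate 1, CON replicate 2 or T + E2 replicate 1 and 10 without T + E2 replicate 3. These fits have fewer mice. Antigen processing genes that rose numbered 5 with limma on log2(FPKM + 1) or log2(FPKM + 0.1) and 3 to 7 with a mouse left out, and interferon-responsive genes that fell numbered 4 to 9 in all alternatives and 4 to 7 with a mouse left out. Of the related genes, Nfe2l1, B2m, Calr, Canx, Ube3c, Mx1, Oasl2, Stat2 and Bst2 passed in all 14 alternatives, while Tap1 and Lnpep did not in 8, Pomp in 5, Tap2 in 4, Ubqln4 and Pdia3 in 2, Xaf1 in 3, and Ifi44 in 5 of 13. Library totals alone moved the median of all genes to -0.0396.

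Replicate numbers name different mice, and same-numbered mice did not deviate together (correlations of -0.0516, 0.0275 and 0.0463). Not every mouse correlated best with its own number. With a replicate block, 4 members rose and 0 fell. For the ratio of Psmb8 to Psmb5 the block left the difference at -0.0424.

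Signs turned only in values that did not pass the test, and the log2 fold changes with a mouse left out span both signs. Psma4 ranged from -0.0401 (without T + E2 replicate 2) to 0.179, Psmd9 from -0.11 to 0.0348 (without CON replicate 3; 0.0245 without T + E2 replicate 3) and Psme3 from -0.0265 (without T + E2 replicate 1) to 0.0962, with -2.38e-05 by limma on log2(FPKM + 0.1). Psmg1 ranged from -0.128 to 0.121 (without CON replicate 3; 0.0894 without T + E2 replicate 3), Psmg2 from -0.109 to 0.038 (without CON replicate 2; 0.0103 without CON replicate 3), Psmg3 from -0.407 to 0.0152 and Psmg4 from -0.269 to 0.00606, both positive without CON replicate 3. Shfm1 ranged from -0.0748 to 0.107, with -0.0442 and -0.0113 without CON replicate 1 or 2, -0.0197 with library totals and -0.02 and -0.0217 with limma. The difference in log2 ratio of Psmb8 to Psmb5 ranged from -0.185 to 0.0665 with a mouse left out, with positive values of 0.0665 without CON replicate 2 and 0.0209 without T + E2 replicate 1. Those of Psmb9 to Psmb6 and Psmb10 to Psmb7 stayed negative in every alternative, from -0.751 to -0.331 and from -0.845 to -0.565. The causes were not tested.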
